A study of Mus musculus with 16 samples.

Results

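The genes described here are 8 genes used as markers of Schwann cells and of the myelin that these cells make around peripheral axons: Sox10, Foxd3, Cdh19, S100b, Pmp22, Mbp, Mag and Prx. They were chosen by name, as a read-out of nerve in dissected tail tendon, and all 8 were found by Ensembl identifier among the 25719 genes listed for each library. Of the 8, 4 had enough reads to be tested (S100b, Pmp22, Mbp and Prx), and 4 did not pass the filter on low counts (Sox10, Foxd3, Cdh19 and Mag). The filter kept a gene that had enough reads in as many libraries as 1 genotype holds, so a gene could pass through either genotype.

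RNA was sequenced from tail tendon fascicles, the fine collagen strands of the mouse tail, in 8 wild type libraries and 8 libraries labelled KO. The KO mice were ScxCre;Vhlf/f: Cre recombinase is driven by the tendon gene Scx and acts on floxed alleles of Vhl, whose protein, in a ubiquitin ligase, recognises hypoxia-inducible factors and sends them for breakdown. Whether the wild type mice carried a floxed allele or Cre, and the age and sex of the mice, are not given in the sources used here. The labels do not say that each library came from its own mouse, so p-values measure the spread between these libraries, which may be partly technical.

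Total counts ran from 10488355 to 18753254 per knockout library and from 10792900 to 16379401 per wild type library, and a floor of 3 counts stood for 0.145 to 0.336 CPM (counts scaled to a common library size). Vhl itself, tested as the targeted gene, was at 9.36 ± 1.25 CPM in knockout against 20.5 ± 3.69 CPM in wild type libraries (SD, n = 8), with no overlap between the groups. The labelled tissue is all cells of the fascicle, and the libraries differed in what else they held. Skeletal muscle markers summed to between 137 and 8210 CPM in the knockout and between 51.8 and 4290 CPM in the wild type. Their mean log2 CPM was above 7 in 4 libraries (knockout 6, 7 and 8 and wild type 5), called the muscle-rich libraries below. Endothelial markers summed to between 62.0 and 575 CPM in the knockout and between 40.5 and 59.1 CPM in the wild type. In such bulk samples, fewer cells of a type and less RNA per cell cannot be told apart.

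Schwann cells are the glia of peripheral nerve. Some wrap a single large axon in compact myelin, a stack of membrane held together by proteins such as Mbp and Pmp22, while others hold bundles of small axons without myelin. Their identity rests on the transcription factor Sox10, and their myelin programme on Egr2, which Sox10 helps to switch on in response to neuregulin signals from the axon through the receptors ErbB2 and ErbB3. Tendon is sparsely innervated, mainly in its sheath and around its vessels. Several of the genes are also made outside nerve, Pmp22 in fibroblasts and epithelia among them.

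The genes of Schwann cell identity were at or near the limit of detection in all 16 libraries. Sox10 (chromosome 15, ENSMUSG00000033006) is the defining transcription factor of the lineage. Its counts in knockout libraries 1 to 8 were 1, 1, 1, 0, 8, 10, 9 and 9, and in wild type libraries 1 to 8 they were 0, 0, 3, 0, 2, 0, 1 and 0. Only knockout libraries 5, 6, 7 and 8 went past 3 counts, at 0.396 to 0.764 CPM, and 5 wild type libraries had none. Over all libraries of a genotype this made 39 reads in knockout libraries against 6 in wild type libraries.

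Cdh19 (chromosome 1, ENSMUSG00000047216), a cadherin of Schwann cell precursors and of Schwann cells, had the same layout. Its counts were 2, 0, 0, 0, 7, 11, 11 and 8 in knockout libraries 1 to 8, whereas wild type library 1 had 2 and the other 7 had 0. Again knockout libraries 5 to 8 were those past 3 counts. Foxd3 (chromosome 4, ENSMUSG00000067261), a forkhead factor of the neural crest and its glia, had 10 reads over the knockout libraries and 2 over the wild type libraries, and went past 3 counts in 1 library, knockout 7, with 5. Mag (chromosome 7, ENSMUSG00000036634), the adhesion glycoprotein on the inner face of the myelin sheath, had counts of 3, 2, 1, 3, 5, 2, 4 and 4 in knockout libraries 1 to 8. In the wild type libraries Mag had 1, 0, 0, 0, 2, 0, 2 and 0, so its reads were spread over all knockout libraries and absent from 5 of the wild type.

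None of these 4 genes entered the main test. When the edgeR quasi-likelihood test was run without a filter, 38.4% of 21380 genes were called in either direction and 21.4% were called higher in the knockout. In that fit the Benjamini-Hochberg adjusted p was 0.0077 for Cdh19, 0.0298 for Sox10, 0.0328 for Mag and 0.148 for Foxd3. The Cdh19 call held when any 1 library was left out (adjusted p 0.00324 to 0.0173, edgeR). Those of Sox10 and Mag were lost without several single libraries. For Sox10 these were knockout 6, 7 or 8 or wild type 1, 2, 4, 6 or 8 (adjusted p up to 0.0623, edgeR), and for Mag they were knockout 5 or 8 or wild type 2, 3, 4, 6 or 8 (up to 0.0654, edgeR). Without the 4 muscle-rich libraries the edgeR adjusted p was 0.239 for Sox10, 0.187 for Cdh19 and 0.0319 for Mag. No fold change is given for these genes, since the wild type libraries were at or under 3 counts throughout.

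The label "Schwann cell" was therefore checked against markers that gave very few reads. The abundant genes of the set are described below by name, with no cell type assigned to them.

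Of the 4 tested genes S100b differed most between genotypes. S100b (chromosome 10, ENSMUSG00000033208) encodes a small calcium-binding protein that is a standard stain for Schwann cells and is also made by chondrocytes and adipocytes. In the knockout it ran from 2.38 to 5.64 CPM with a median of 4.15, and in the wild type from 1.27 to 2.90 CPM with a median of 2.18. The groups overlapped only through knockout library 7, the lowest of its genotype, which lay below wild type libraries 5, 7 and 8. The log2 fold change was 0.88 (1.85-fold, SE 0.179, n = 8 per genotype, adjusted p 0.000398, edgeR). It passed the threshold in all 28 alternative fits, with log2 fold changes from 0.80 to 1.18.

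Prx, Mbp and Pmp22 encode proteins found in the myelin sheath. Prx (chromosome 7, ENSMUSG00000053198) encodes periaxin, which ties the Schwann cell membrane to its cytoskeleton, and its exons overlap a gene model on the opposite strand, Gm15541, so its counts are uncertain where strand was not used. It ran from 6.43 to 12.2 CPM in the knockout (median 7.42) and from 4.73 to 9.03 CPM in the wild type (median 5.98). Knockout library 5 was highest, wild type library 5 came after knockout 5 and 8, and the groups overlapped between 6.43 and 9.03 CPM. The log2 fold change was 0.40 (1.32-fold, SE 0.160, adjusted p 0.0434, edgeR). This call was lost when any of 8 libraries was left out: knockout 1, 5 or 8 or wild type 2, 4, 6, 7 or 8 (log2 fold change 0.29 and adjusted p 0.106, edgeR, without knockout 5).

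Mbp (chromosome 18, ENSMUSG00000041607), myelin basic protein, seals the inner faces of the myelin membrane. It ran from 15.0 to 36.0 CPM in the knockout (median 18.4) and from 16.4 to 28.4 CPM in the wild type (median 21.3). Knockout library 5 stood above all others and the remaining 15 libraries lay between 15.0 and 28.4 CPM. The log2 fold change was -0.04 (SE 0.161, adjusted p 0.849, edgeR), and its sign depended on the fit. With scaling to total counts it was 0.27, and without knockout library 5 it was -0.21.

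Pmp22 (chromosome 11, ENSMUSG00000018217), a membrane protein of compact myelin whose dosage underlies inherited neuropathies, was by far the most abundant of the set. It ran from 258 to 455 CPM in the knockout (median 364) and from 382 to 442 CPM in the wild type (median 411). The knockout libraries were spread over a wider range, SD 71.3 against 21.0 CPM, with knockout libraries 1, 7 and 8 lowest and knockout library 5 highest. The log2 fold change was -0.25 (SE 0.106, adjusted p 0.0585, edgeR), short of the threshold. It passed in 6 of 28 alternatives, 2 of which left out knockout library 4 (adjusted p 0.0392, edgeR) or 5 (0.0113, edgeR), and with scaling to total counts it was 0.05.

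In the main edgeR test 2 of the 8 genes, S100b and Prx, were called, both higher in the knockout, and none was called lower. Over all 14803 genes tested 48.3% were called, 25.6% higher and 22.7% lower, so a share of 2 in the 4 tested is near the background and is not a result about the set. In 0 of the 4 tested genes were the genotypes free of overlap, against 19.4% of all tested genes. Without a filter 5 of the 8 were called, all higher (Cdh19, Mag, Prx, S100b and Sox10). In that fit 38.4% of 21380 genes were called and 21.4% were called higher. Cdh19, Mag and Sox10 were at or under 3 counts in every wild type library, and the Sox10 and Mag calls were lost without several single libraries. The median log2 fold change was 0.18 over the 4 tested genes and 0.02 over all tested genes.

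**Figure D1:**
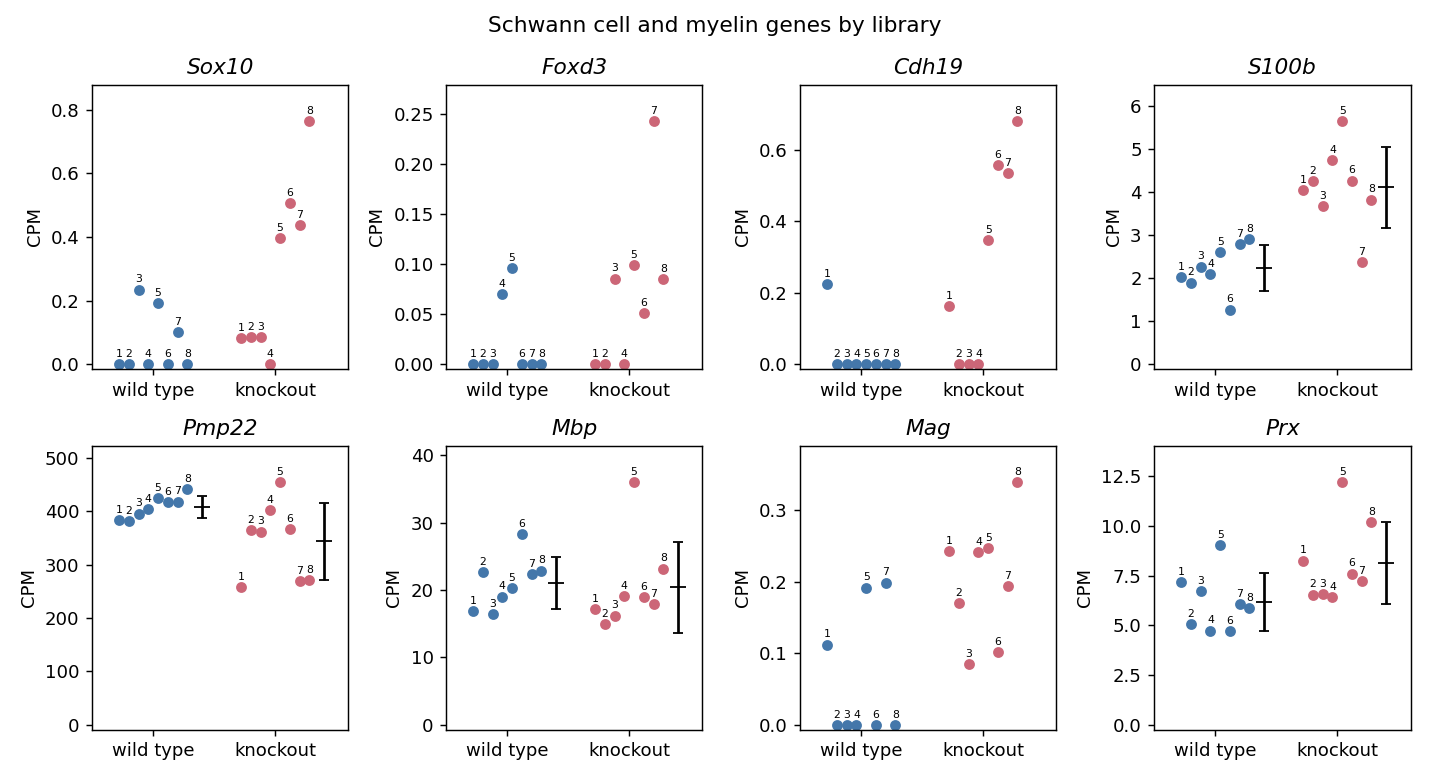
Each panel plots 1 gene in CPM on its own linear axis from 0, with 1 point per library (8 wild type in blue, 8 knockout in red), numbered by library. Bars beside the 4 tested genes are mean ± SD; Sox10 and Cdh19 reach above 3 counts only in knockout libraries 5 to 8, S100b overlaps between genotypes only through knockout library 7, and knockout library 5 is highest for S100b, Pmp22, Mbp and Prx.

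The promoters of the 2 called genes are shown because loss of Vhl is known to raise hypoxia-inducible factors, whose DNA motif has a short core. Each window holds 250 bases before and 50 bases after the start of transcription, from RefSeq on GRCm38.p6, and entries matched 5 of the 8 genes (S100b, Pmp22, Prx, Foxd3 and Mag). The windows were searched on both strands for ACGTG and GCGTG, the hypoxia response cores, and for ACAAAG and ACAATG, cores of SOX factor motifs. Capitals mark a match. The S100b window is chr10:76253586-76253885 and the Prx window chr7:27499074-27499373, both on the plus strand.
S100b: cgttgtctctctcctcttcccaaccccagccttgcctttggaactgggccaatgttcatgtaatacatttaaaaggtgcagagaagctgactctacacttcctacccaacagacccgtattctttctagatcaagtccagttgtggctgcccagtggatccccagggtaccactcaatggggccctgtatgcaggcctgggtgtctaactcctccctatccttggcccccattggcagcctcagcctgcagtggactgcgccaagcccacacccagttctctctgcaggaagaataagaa
Prx: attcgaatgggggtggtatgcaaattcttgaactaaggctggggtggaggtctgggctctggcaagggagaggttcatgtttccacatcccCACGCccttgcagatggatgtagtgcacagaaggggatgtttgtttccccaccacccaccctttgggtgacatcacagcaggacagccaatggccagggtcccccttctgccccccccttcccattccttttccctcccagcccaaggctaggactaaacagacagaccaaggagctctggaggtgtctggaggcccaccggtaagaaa

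S100b had none of the 4 motifs in this window. Prx had 1 match, GCGTG on the minus strand starting at base 92 of the window. Over 32851 promoter windows of the same length, 43.8% held either hypoxia response core (19.6% ACGTG, 32.4% GCGTG), 18.7% held ACAAAG and 12.6% held ACAATG. Of the genes that were not called or not tested, Pmp22 had 1 GCGTG and 1 ACGTG in 2 of its 4 windows, and the Foxd3 window held 2 ACGTG, which overlap each other on opposite strands, and 3 GCGTG. Mag had 1 ACAAAG, which lay in 2 of its overlapping windows. A match describes letters in these windows and is not a site of binding.

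Levels were compared between genes per kilobase of exon (GENCODE M21). Pmp22 stood at 174 ± 8.91 CPM per kilobase in wild type libraries against 146 ± 30.3 in knockout libraries (SD, n = 8). Mbp was next in the wild type at 2.49 ± 0.456, against 2.41 ± 0.798 CPM per kilobase in the knockout. S100b was at 1.50 ± 0.360 CPM per kilobase in wild type libraries against 2.76 ± 0.627 in knockout libraries, and Prx at 1.11 ± 0.262 and 1.46 ± 0.370. In the wild type S100b and Prx were within their spread of each other, and in the knockout S100b and Mbp were. The remaining 4 were far lower, with means from 0.00655 (Cdh19) to 0.0215 (Sox10) CPM per kilobase in the wild type and from 0.0302 (Foxd3) to 0.0965 (Sox10) in the knockout. Their order is not read, since they rest on so few reads.

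Ratios of genes within a library do not depend on how libraries are scaled to each other, so the 4 tested genes were also compared in pairs, 6 pairs in all, by a two-sided exact permutation test over the 12870 assignments of libraries to genotypes. Against Pmp22, S100b was at -6.34 ± 0.25 log2 units in knockout libraries and -7.46 ± 0.33 in wild type libraries, a difference of 1.12 with no overlap. The exact permutation p was 0.000155, the smallest this design can give (0.000932 adjusted over the 6 ratios). S100b to Mbp was 0.92 log2 units higher in the knockout (exact permutation p 0.000311, adjusted 0.000932). Pmp22 to Prx was lower by 0.66 in the knockout, at 5.38 ± 0.44 against 6.04 ± 0.32 log2 units (exact permutation p 0.00466, adjusted 0.00932). These 3 ratios passed the threshold in all 18 alternatives run on them.

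S100b to Prx differed by 0.46 log2 units (exact permutation p 0.0249, adjusted 0.0300) and Mbp to Prx by -0.46 (exact permutation p 0.0250, adjusted 0.0300). They lost the call in 6 and 9 of the 18 alternatives. Mbp to Pmp22 differed by 0.20 (exact permutation p 0.240, adjusted 0.240), which was not past the threshold. S100b was thus higher in the knockout against each of the other 3 genes in the same libraries, and the ratio of Pmp22 to Prx differed as well.

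Across the libraries of 1 genotype no relation between the genes passed the threshold after adjustment. In the knockout Mbp and Prx had Pearson's r = 0.89 (exact permutation p 0.00561) and Spearman's rho = 0.57 (exact permutation p 0.151, n = 8). Without knockout libraries 5 and 8 that r was 0.26, so it rests on those libraries. In the wild type r for Mbp and Prx was -0.50 and rho -0.60 (exact permutation p 0.203 and 0.132). S100b and Pmp22 in the knockout had r = 0.71 and rho = 0.83 (exact permutation p 0.0274 and 0.0154), and r was 0.52 without knockout libraries 5 and 7. Over the 20 relations computed, the smallest adjusted exact permutation p was 0.112 for r and 0.308 for rho.

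The tested genes most similar to each of the 4 over all 16 libraries, after centring on the genotype mean, included no gene of the nerve lists described further on. For S100b they were Slc9a4 (r = 0.84), Mrps31 (0.82), Ccdc137 (0.78), Oma1 (0.77) and Ppil3 (0.77). For Pmp22 they were Atp6ap2 (0.95), Tiprl (0.94), Emp3, a relative of Pmp22 in the same protein family (0.93), Cd9 (0.93) and Plp2 (0.93). Mbp was followed most closely by Snapc2 (0.84), Nop9 (0.82), Ifnar1 (0.81), Gtf2f2 (0.80) and Fibp (0.79), and Prx by Psmb10 (0.74), Trim59 (0.74), Bmper (0.73), Hist1h3i (0.72) and Hist1h2bm (0.72). These correlations are descriptions over libraries that share depth and composition, and carry no test.

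Genes of the wider nerve lists were called in both directions. Of 18 further myelin proteins and lipid enzymes 7 were tested, and 1 was called higher, 1 lower and 5 not, with a median log2 fold change of 0.04. The share called, 28.6%, was below the 48.3% over all tested genes. Nfasc, the adhesion protein neurofascin of the node of Ranvier, was at 2.67 ± 0.934 CPM in knockout against 1.32 ± 0.416 CPM in wild type libraries (SD, n = 8), higher by 1.00 log2 units (SE 0.232, adjusted p 0.00142, edgeR). Drp2, the partner of periaxin that links it to dystroglycan, was lower in every knockout library (12.7 ± 2.77 CPM) than in any wild type library (24.7 ± 8.21 CPM), with a log2 difference of -0.95 (SE 0.174, adjusted p 0.000177, edgeR). Over all tested genes 8.61% were lower in the knockout without overlap. Drp2 and Prx, which encode bound partners, were thus called in opposite directions.

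Of the untested myelin genes, Pmp2, a fatty acid binding protein of the sheath, had 57 reads over the knockout and 8 over the wild type libraries (adjusted p 0.0342, edgeR without a filter), 24 of them in knockout library 5. Mal, a proteolipid of the sheath, had 89 and 20 (adjusted p 0.187, edgeR without a filter), with 45 in knockout library 5 and 11 in wild type library 5. Gldn, named after its value was seen, had 301 and 48 (adjusted p 0.00399, edgeR without a filter). Its counts were 116, 78 and 41 in knockout libraries 6, 7 and 8, which are muscle-rich.

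Among 11 Schwann cell transcription factors 7 were tested, 3 were called higher and none lower (median log2 fold change 0.42), a share of 42.9% against 48.3% over all tested genes. Id2, an inhibitor of basic helix-loop-helix factors made in many cell types, had the largest difference, 132 ± 34.3 CPM against 22.9 ± 6.19 CPM (2.53 log2 units higher, SE 0.185, adjusted p 4.77e-09, edgeR), with no overlap. Zeb2, a zinc finger factor that Schwann cells need to form myelin, was at 176 ± 21.9 against 131 ± 11.8 CPM (log2 fold change 0.42, adjusted p 0.000189, edgeR). Egr2, the master regulator of the myelin genes and also an immediate early gene in other cells, was at 3.99 ± 2.19 against 1.65 ± 0.846 CPM (1.27 log2 units higher, SE 0.303, adjusted p 0.00191, edgeR). The Egr2 range in the knockout was 2.30 to 9.21 CPM, with library 7 far above the rest. The remaining 4 tested factors were Nab1, Nab2, Jun and Id4, at log2 fold changes of -0.03 to 0.70.

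Of 11 receptors and ligands of Schwann cells 7 were tested, 1 was called higher and 4 lower (median log2 fold change -0.29), against 25.6% higher and 22.7% lower over all tested genes. Erbb3, the neuregulin receptor of Schwann cells, was at 7.61 ± 0.977 CPM in knockout against 6.07 ± 2.77 CPM in wild type libraries (log2 fold change 0.32, adjusted p 0.214, edgeR). Its partner Erbb2, made by many cell types, fell by 0.29 on the log2 scale (adjusted p 0.00944, edgeR), a call that was lost with scaling to total counts (log2 fold change -0.01) and, at a log2 fold change of -0.24, in the smaller fit without the muscle-rich libraries (adjusted p 0.0861, edgeR). Adam22 and Lgi4, which encode a receptor and ligand pair needed for myelination, fell by 1.45 and 0.82 on the log2 scale (adjusted p 4.16e-09 and 5.97e-05, edgeR). Counts of Lgi4 are uncertain, since its exons overlap those of Fxyd3 on the other strand. Lpar1, a receptor for lysophosphatidic acid that fibroblasts also carry, fell from 218 ± 21.6 to 110 ± 10.6 CPM. The gene called higher, named after its value was seen, was the endothelin receptor Ednrb (log2 fold change 0.88, adjusted p 0.0181, edgeR), at 0.25 (adjusted p 0.296, edgeR) without the muscle-rich libraries. Ngfr, the p75 receptor of immature and non-myelinating Schwann cells, was not tested and had 125 reads over the knockout and 34 over the wild type libraries, with an adjusted p of 0.0633 in edgeR without a filter. Dhh, an untested ligand of this list named after its value was seen, had 85 and 8 reads (adjusted p 0.000225, edgeR without a filter). Its exons overlap those of Rhebl1 on the same strand, so its counts are uncertain.

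The list of non-myelinating, immature and repair Schwann cell genes held 14 genes, of which 7 were tested, 2 were called higher and 3 lower (median log2 fold change -0.43), a share of 71.4% against 48.3% over all tested genes. Scn7a, a sodium channel of non-myelinating Schwann cells that other cell types also make, showed the largest difference of any nerve gene tested. It ran from 14.2 to 59.6 CPM in knockout libraries, against 0.303 to 3.07 CPM in wild type libraries, with no overlap (log2 fold change 5.24, SE 0.446, adjusted p 8.63e-08, edgeR). Scn7a passed the filter through the knockout, where it was high. Over all tested genes 10.8% were higher without overlap. L1cam, an adhesion molecule of axons and unmyelinated fibres whose exons overlap Arhgap4, was higher by 0.91 log2 units (adjusted p 0.00031, edgeR). Sema3b and Plekhb1 fell by 1.00 and 1.22 on the log2 scale (adjusted p 0.000497 and 7.86e-06, edgeR). The remaining gene called lower, named after its value was seen, was the growth cone protein Gap43 (log2 fold change -1.29, adjusted p 0.00145, edgeR). Ncam1, the neural cell adhesion molecule, was at 228 ± 25.6 against 224 ± 38.9 CPM (log2 fold change 0.02, adjusted p 0.875, edgeR).

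Axon and perineurial genes give the other components of a nerve. Of 14 genes of axons and peripheral neurons 3 were tested and 1 was called, a share of 33.3% against 48.3% over all tested genes. It was Uchl1, a neuronal ubiquitin hydrolase, at 10.2 ± 8.19 CPM in knockout against 4.88 ± 1.61 CPM in wild type libraries (log2 fold change 1.07, adjusted p 0.0445, edgeR). That call was lost in 17 of 28 alternatives, including those without knockout library 6, 7 or 8 or wild type library 1, 2, 4, 5, 6, 7 or 8, and its log2 fold change was 0.08 without the muscle-rich libraries. Nefl, Scn10a and Snap25, which mark axons, nociceptors and nerve endings, were at or under 3 counts in every library. Tubb3, neuronal tubulin, and Th, the enzyme of sympathetic axons, were untested and were named after their values were seen. Tubb3 had 148 reads over the knockout and 18 over the wild type libraries (adjusted p 0.000123, edgeR without a filter). Th had 132 and 16 (adjusted p 0.0307, edgeR without a filter). Of its knockout reads, 58 were in library 7 and 37 in library 8, both muscle-rich, and knockout libraries 4 and 5 had 1 each. Of 8 perineurial genes 5 were tested, 1 was called higher and 2 lower, a share of 60.0% against 48.3% over all tested genes. Ptch1, the hedgehog receptor, was higher by 0.65 log2 units, and Cldn1 and Itgb4, a tight junction protein and an integrin subunit, were lower by 1.68 and 1.34 log2 units (edgeR adjusted p 1.06e-05, 7.51e-06 and 6.19e-06).

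**Figure D2:**
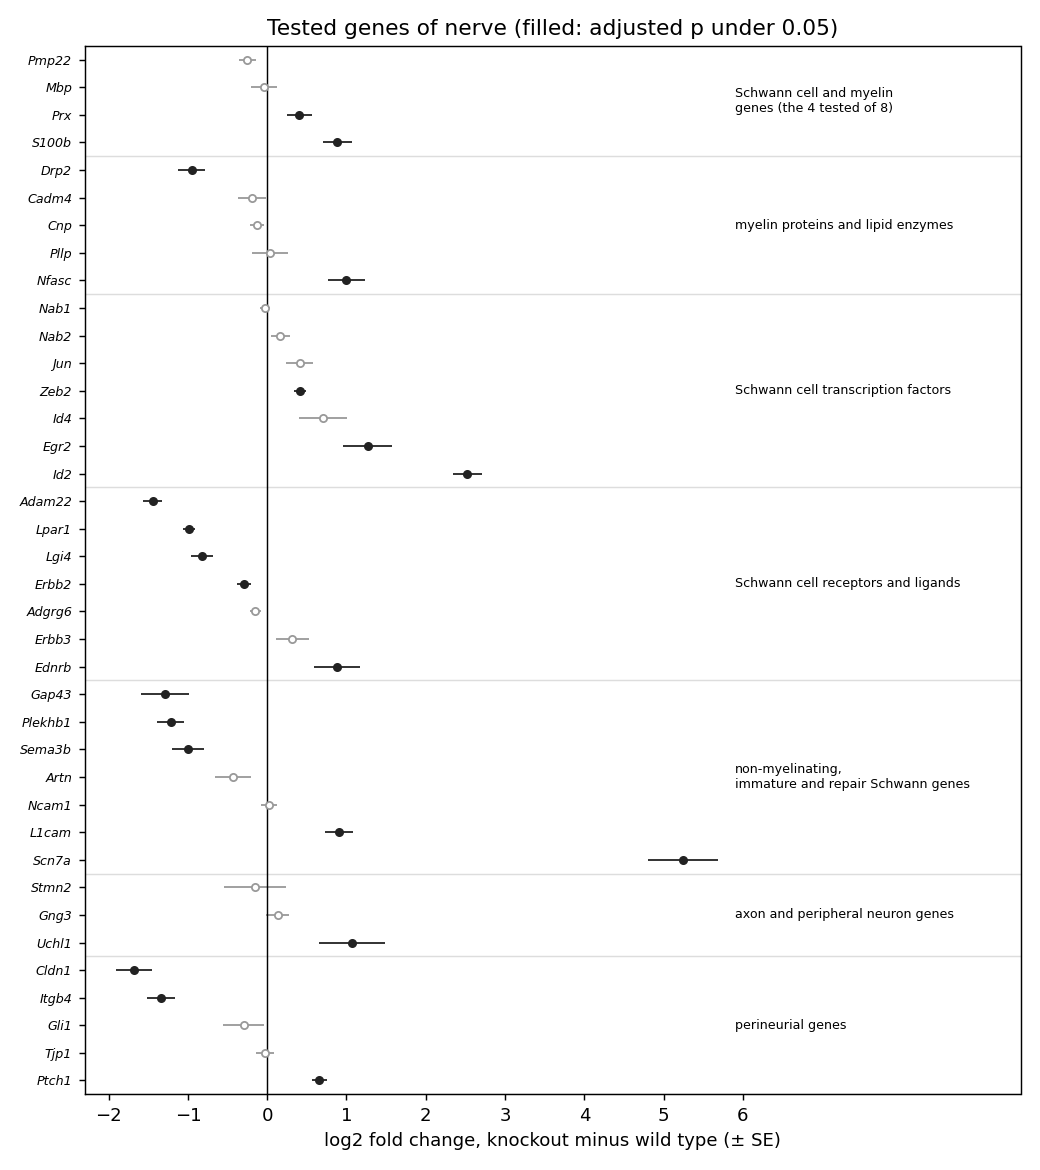
Points give the log2 fold change, knockout minus wild type, of tested genes of the nerve lists, with bars of ± 1 SE from edgeR and filled points for an adjusted p under 0.05. Called genes lie on both sides of 0, from Cldn1 at -1.68 to Scn7a at 5.24, and the 4 tested genes of the Schwann cell and myelin set lie between -0.25 and 0.88.

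Many of the myelin genes were highest in the same library of a genotype, read here for genes with more than 3 counts in their highest library. Among the knockout libraries, library 5 was highest for 12 of the 18 further myelin genes and for 4 of the 8 genes of the set. Among the wild type libraries, library 5 was highest for 6 of the 14 further myelin genes with such counts, and for 1 of the 4 genes of the set (Prx). In 5 of those 14 both were highest in their genotype, among them Mal and the glycolipid enzyme gene Ugt8a. The labels do not say that libraries of the same number are linked.

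Muscle marker levels in these 2 libraries were at opposite ends. The mean log2 CPM of the muscle markers was 2.80 in knockout library 5, the lowest of the knockout, and 8.12 in wild type library 5, the highest of the wild type. The other libraries past 3 counts of Sox10, knockout 6, 7 and 8, had muscle levels of 8.11, 8.71 and 8.60, and endothelial levels of 4.99, 5.56 and 5.06, the highest of the knockout for both lists. The part of muscle and of vessels in the Sox10 counts was not tested. S100b differed by as much without the muscle-rich libraries (log2 fold change 1.05, adjusted p 0.0003, edgeR) and with the muscle level as a covariate (0.93, adjusted p 0.000574, edgeR). Prx kept its call without those libraries (0.49, adjusted p 0.0343, edgeR) and lost it with the covariate (0.37, adjusted p 0.0878, edgeR).

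**Figure D3:**
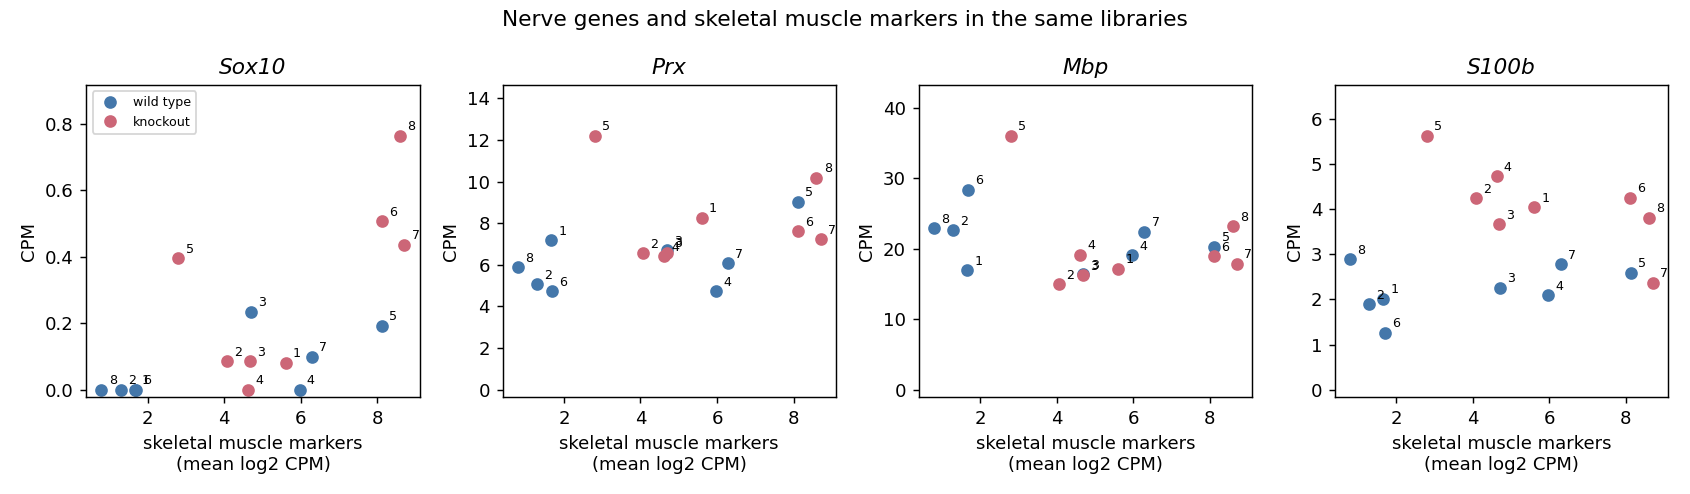
Each panel plots the CPM of 1 gene against the mean log2 CPM of 12 skeletal muscle markers in the same library, with 8 wild type libraries in blue and 8 knockout libraries in red, numbered. Prx and Mbp are highest in knockout library 5 at a muscle level of 2.80, whereas Sox10 is highest in knockout library 8 at a muscle level of 8.60, and S100b lies above every wild type library in each knockout library except library 7.

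Markers of the other cells that make these genes were read beside S100b and Mbp. Of 9 chondrocyte markers 6 were tested, 3 were called higher and 1 lower, a share of 66.7% against 48.3% over all tested genes. The chondrocyte markers summed to 100 to 251 CPM in knockout against 44.6 to 154 CPM in wild type libraries. Acan and Sox9, a proteoglycan and a transcription factor of cartilage, were higher by 3.34 and 2.34 log2 units (edgeR adjusted p 2.42e-06 and 3.9e-09). The cartilage matrix protein Matn3 was the one called lower, at 1.18 ± 0.495 CPM in knockout against 19.4 ± 4.95 CPM in wild type libraries, a log2 difference of -4.02 (adjusted p 3.79e-11, edgeR) with no overlap. Of 9 adipocyte markers 2 were tested and Fabp4, which endothelial cells also make, was called higher. They summed to 2.81 to 79.4 CPM in knockout against 2.12 to 10.1 CPM in wild type libraries. With the adipocyte level, the mean log2 CPM of only those 2 tested markers, as a covariate S100b was at 1.04 (adjusted p 0.00115, edgeR). The part of the chondrocyte markers in the S100b value was not tested. Of 12 endothelial markers 9 were tested, 7 were called higher and none lower, a share of 77.8% against 25.6% called higher over all tested genes. Some of these markers had few reads in wild type libraries and passed the filter through the knockout, so that share is partly set by the filter. Their mean log2 CPM did not overlap between genotypes (2.17 to 5.56 against 1.00 to 2.05). With the endothelial level as a covariate S100b was at 1.16 (adjusted p 0.00762, edgeR) and Prx at 0.32 (adjusted p 0.456, edgeR). Because that level did not overlap between genotypes, the fit cannot tell it apart from genotype, and its values are only a description. Of the 19 called further nerve genes, 9 lost their calls with that covariate. Calls fell over all tested genes as well, from 7151 to 4047, so this loss is not particular to nerve genes. Gap43 stayed at -1.26 and Drp2 at -0.77, Nfasc was at 0.51, L1cam at 0.32, Sema3b at -0.37 and Erbb2 at -0.13. Egr2 was at 0.16 and Zeb2 at 0.09, and Ednrb reversed to -0.67 (edgeR adjusted p 0.083 to 0.837 over the 9). Uchl1 was called in the opposite direction, at -1.35 (adjusted p 0.0201, edgeR). Nab2 and Id4, not called in the main fit, were called with that covariate, at 0.64 and -1.01 (adjusted p 0.00849 and 0.0122, edgeR).

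Of 8 oligodendrocyte genes 6 (Mog, Mobp, Opalin, Olig2, Hapln2 and Klk6) were at or under 3 counts in every library, 3 of them at 0. The 1 tested, Aspa, was called lower, as were 22.7% of all tested genes, and it passed the filter through the wild type. Of 8 melanocyte markers, a second neural crest lineage that holds Sox10, 5 (Tyr, Dct, Mlana, Slc45a2 and Oca2) were at or under 3 counts in every library. The 2 tested melanocyte markers were called in opposite directions, against 25.6% called higher and 22.7% called lower over all tested genes. Pmel, a protein of the pigment granule, was at 3.68 ± 0.757 CPM in knockout against 5.06 ± 0.849 CPM in wild type libraries (log2 fold change -0.46, adjusted p 0.0103, edgeR), and Mitf, a transcription factor that other cells also make, was higher by 0.32 log2 units (adjusted p 0.00174, edgeR). The oligodendrocyte list summed to 0.804 to 1.84 CPM in knockout against 2.21 to 4.60 CPM in wild type libraries. The melanocyte list, mostly Mitf, summed to 40.6 to 49.5 CPM in knockout against 34.3 to 46.6 CPM in wild type libraries. Tenocyte markers summed to 76400 to 180000 CPM in knockout against 130000 to 380000 CPM in wild type libraries. Of these, 6 of 8 were called lower and none higher (75.0%, against 22.7% called lower over all tested genes).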

How the data were processed

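RNA was sequenced from whole tail tendon fascicles in 8 knockout and 8 wild type libraries, grouped by the genotype in their labels. The authors deposited raw counts per gene and library, per the file headers a column of matched counts. Kallisto, featureCounts and the build GRCm39 are named in the submitters' processing notes, with no version or role, and the annotation and the use of strand are not given in the sources used here. Identifiers were matched to symbols for 25614 of 25719 genes and 105 kept their identifier. Chromosomes, exon lengths and exon overlaps came from GENCODE M21, an annotation of GRCm38, so no positions of counted genes are given. Promoter sequences came from RefSeq.

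Counts were tested with the two-sided quasi-likelihood F test of edgeR 4.0.16 (R 4.3.3), with TMM scaling, the default expression filter and robust dispersions. Benjamini-Hochberg adjustment ran over all 14803 tested genes, and an adjusted p under 0.05 was a call. These genes held at least 99.7% of each library's counts. CPM used TMM library sizes, and log2 CPM a prior count of 2. A floor of 3 counts covers counting error only. No library was a repeat of another: the most similar pair of a genotype had a chi-square per degree of freedom of 6.56 (wild type) or 8.67 (knockout) over 14096 genes. Ratios and correlations used exact permutation tests (scipy 1.17.1). The scripts were tested on simulated data.

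The 8 genes and all lists were chosen with earlier results of these data known. Besides the 8 genes, up to 4 called genes with the smallest adjusted p were named per list, and Egr2, Erbb3, Ngfr and Ncam1 regardless of value. Pmp2, Mal, Ugt8a, Gldn, Ednrb, Dhh, Gap43, Tubb3 and Th were named after their values were seen. Some genes counted in the lists are not reported by name here. For each tested gene of the 8, the 5 most correlated genes with a mean log2 CPM of at least 1 were named. Alternatives were DESeq2 1.42.0, limma-voom 3.58.1, other scalings and filters, covariates, a replicate block and leaving out libraries. Ratios and correlations with Sox10 were planned but not run, because Sox10 was at or under 3 counts in every wild type library. The ratios between the 4 tested genes, the fits without the 4 muscle-rich libraries and the unfiltered fits with libraries left out were chosen after seeing the data. Correlations with the muscle level are not given, since the libraries fell into separate clusters of it.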

Additional observations from a re-analysis of the deposited data

Results flagged for a closer look

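Egr2, the regulator of the myelin genes, had 1 knockout library far from the others. Knockout library 7 was at 9.21 CPM, a log2 CPM of 3.23, and the next library of the genotype was at 3.95 CPM, a log2 CPM of 2.04. That gap was 0.61 of the genotype's whole range, above Dixon's critical value for 8 libraries. It was the only one of 18 such checks past its critical value, and chance passes about 1 in 20. Knockout library 7 also had the highest muscle and endothelial marker levels of the knockout, 8.71 and 5.56 (mean log2 CPM), and the lowest S100b. The Egr2 log2 fold change was 1.27 in the fit of all libraries. It was 0.91 (adjusted p 0.00919, edgeR) with the muscle level as a covariate and 0.93 (adjusted p 0.0142, edgeR) without the 4 muscle-rich libraries. With the endothelial level as a covariate it was 0.16 (adjusted p 0.837, edgeR). That level did not overlap between genotypes, so the last fit cannot tell it apart from genotype.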

How the results depend on the processing

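S100b kept its direction and its call in all 28 alternatives. The count of called genes of the set, 2 in the main fit, was 5 without an expression filter, 3 with the replicate block, 1 with the adipocyte, endothelial or muscle level as a covariate, and 1 to 3 with single libraries left out. Pmp22 was called, lower in the knockout, with DESeq2 size factors (log2 fold change -0.27), the DESeq2 Wald test (-0.27), limma-voom (-0.29) and the replicate block (-0.28), and turned to 0.05 with scaling to total counts and with the endothelial covariate. Mbp, never called, turned to 0.27 with total counts, 0.06, 0.07 and 0.05 with the adipocyte, endothelial and muscle covariates, 0.01 without knockout library 2 and 0.03 without wild type library 6 (range -0.21 to 0.03 over single libraries left out). Prx lost its call with the adipocyte (0.35), endothelial (0.32) and muscle (0.37) covariates and spanned 0.29 to 0.50 over single libraries left out. Of all 14803 tested genes 7151 were called (48.3%), 4047 with the endothelial covariate and 6790 to 7151 with single libraries left out. Without a filter 8212 of 21380 genes were called (38.4%). Of the nerve lists, whose shares are given by list above, 19 genes were called, 12 with that covariate and 18 to 22 with single libraries left out. Without a filter 32 were called, but more genes of these lists then entered the test. Scaling to total counts moved the median log2 fold change of all genes from 0.02 to 0.32 and the share of calls that were higher from 53.0% to 85.4%. The cause of these changes was not tested, and the fit with the endothelial covariate cannot tell that level apart from genotype. Same-numbered libraries had correlations of -0.397 to 0.394, 3 of 8 above 0.1 and 1 library correlating best with its own number. They were not treated as pairs in the main fit, and these correlations cannot tell whether they share a batch. The replicate block gave 7010 calls and an adjusted p of 0.00916 for Prx (edgeR). Depth limits Sox10, Cdh19, Foxd3 and Mag, at or under 3 counts in every wild type library.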
